A study of Mus musculus with 6 samples.

Results

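The genes described here are 6 genes of the C-type natriuretic peptide (CNP) and cGMP kinase pathway: Nppc, which encodes CNP, Npr2 and Npr3, which encode its receptors, Prkg1 and Prkg2, which encode the cGMP-dependent protein kinases, and Pde5a, which encodes a cGMP phosphodiesterase. They were chosen by name out of 43472 gene symbols, and the set was built around Prkg2 because its counts had been seen to be lower in mutant than in control libraries. The difference between genotypes in these 6 genes is therefore given as a description, with a standard error (SE). Where calls of these genes at a p threshold are listed, they stand beside the share of all genes and are not read as tests. RNA-seq was performed on intervertebral discs (IVDs) of mice on the C57B6/J strain at postnatal day 20. The 3 mutant libraries came from Col2Cre;Adgrg6 f/f mice, in which a type II collagen promoter drives Cre and removes floxed Adgrg6 (Gpr126 in the labels), an adhesion G protein-coupled receptor. The 3 control libraries carry the genotype label wild type, while their titles call them Col2Cre controls and the study's results describe Cre (-) littermates. Each library was made from discs of the thoracic and lumbar spine pooled from 2 to 3 mice, so that a replicate is a pool and not an animal. The Cre line recombines in the whole disc and also in the periosteum and trabecular bone.

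CNP is a secreted peptide that drives growth of cartilage. It binds NPR-B, the product of Npr2, which is both its receptor and a guanylyl cyclase that makes cGMP. NPR-C, the product of Npr3, has no cyclase and removes the peptide from the cell surface. In growth plate chondrocytes the main known target of this cGMP is the type II kinase, encoded by Prkg2, which is needed for proliferating chondrocytes to move on to hypertrophy, and which opposes signalling from FGFR3 to ERK. The type I kinase, encoded by Prkg1, is best known from smooth muscle and platelets. Mice and rats that lack Prkg2, and mice that lack Nppc or Npr2, are dwarfed, and loss of NPR-C leads to long bones that overgrow.

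The hormone itself is a short ring-shaped peptide. Its coding sequence is shown because it is the ligand on which the other genes depend and because it lies in the least abundant of the 6 transcripts of control discs. CNP is the end of the precursor, codons 105 to 126 of 126, at chr1:86669667-86669732 on the minus strand of GRCm38 in the GENCODE M21 annotation. The 2 cysteine codons that close the ring of 17 residues are in capitals.
Nppc, codons of CNP: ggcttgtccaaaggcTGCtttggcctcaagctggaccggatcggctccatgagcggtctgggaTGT

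The libraries held between 9061491 and 12017008 counts on genes, or 40.4% to 44.2% of the reads counted. Expression is given in CPM, counts on a gene relative to the count total of its library, with totals scaled by the TMM method. Control replicate 1 stood apart in skeletal muscle genes, whose 6 markers summed to 3609 CPM in it and to 65.0 to 148 CPM in the other 5 libraries. Control replicates 2 and 3 had the most counts on 1576 olfactory and vomeronasal receptor genes, which discs should not use, at 66.9 and 129 CPM in sum against 15.7 to 29.8 CPM in the other 4. Aggrecan, type II collagen and the other 8 markers of resting and proliferating chondrocytes summed to 76798 to 137361 CPM in every library. The 8 nucleus pulposus markers, brachyury among them, summed to 2496 to 5888 CPM, and none was at 0. The largest part of the chondrocyte sum in every library was type II collagen (Col2a1), at 62708 to 124063 CPM. Of the nucleus pulposus markers, Car3 was highest in every library, at 1267 to 3520 CPM, and Shh lowest, at 0.321 to 2.39 CPM. Gpr126 itself was at 109 ± 14.7 CPM in control and 122 ± 16.1 CPM in mutant libraries (SD, n = 3), and since counts cover the whole gene and not the floxed part, this does not check the deletion.

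The ligand was close to the limit of detection. Nppc had 5, 8 and 3 counts in control replicates 1, 2 and 3 and 7, 5 and 8 counts in mutant replicates 1, 2 and 3. The genotypes overlapped, and the gene did not pass the filter on low counts, so it alone of the 6 has no place in the fit across genes. Summed over libraries, this came to 0.537 CPM, without TMM scaling, in controls (16 counts, 95% exact Poisson interval 0.307 to 0.872) and 0.633 in mutants (20 counts, 0.387 to 0.978), where the intervals cover counting error only. A difference between genotypes was not detectable at this depth. Reads scattered at the rate seen on the olfactory and vomeronasal receptor genes would give Nppc 0.0260 to 0.309 counts in a library, below the count found in each of the 6.

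The signalling receptor was the most abundant of the 6 genes per length of transcript. Npr2 (chr4:43631935-43651244, plus strand) was at 209.6, 302 and 256 CPM in control replicates 1, 2 and 3. It was at 403, 268 and 411 CPM in mutant replicates 1, 2 and 3. Mutant replicates 1 and 3 lay above every control, and mutant replicate 2 lay between controls. The group means were 256 ± 46.3 CPM in control and 361 ± 79.8 CPM in mutant libraries (SD, n = 3), a log2 fold change of 0.50 (SE 0.23). An antisense transcript, Gm12473, covers 266 exon bases of Npr2, which are 5.7% of them, and the strand setting of the counting is not given in the sources used here. Gm12473 was at 75.7, 174 and 106 CPM in control and 375, 72.5 and 291 CPM in mutant replicates 1, 2 and 3. Like Npr2, it was highest in mutant replicates 1 and 3, and the part of shared reads in either value was not tested.

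The clearance receptor was far scarcer. Npr3 (chr15:11839896-11907287, minus strand) was at 5.57, 7.33 and 6.33 CPM in control and 6.71, 3.18 and 1.70 CPM in mutant replicates 1, 2 and 3. Mutant replicates 2 and 3 lay below every control, and mutant replicate 1 lay among them. The means were 6.41 ± 0.884 and 3.87 ± 2.58 CPM (SD, n = 3), with a log2 fold change of -0.73 (SE 0.48), which ran from -1.34 if mutant replicate 1 was left out to -0.38 if mutant replicate 3 was. The mutant values rest on 16 to 59 counts per library. The log2 ratio of Npr2 to Npr3 counts, which needs no scaling between libraries, was 5.23, 5.37 and 5.34 in control and 5.91, 6.40 and 7.92 in mutant replicates 1, 2 and 3. Every mutant value thus lay above every control, and the controls spread little (SD 0.07) beside the mutants (SD 1.05). This ratio, and those of Prkg2 to Ihh, to Pth1r, to the summed hypertrophic markers and to Acan below, were picked after their values were seen.

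**Figure D1:**
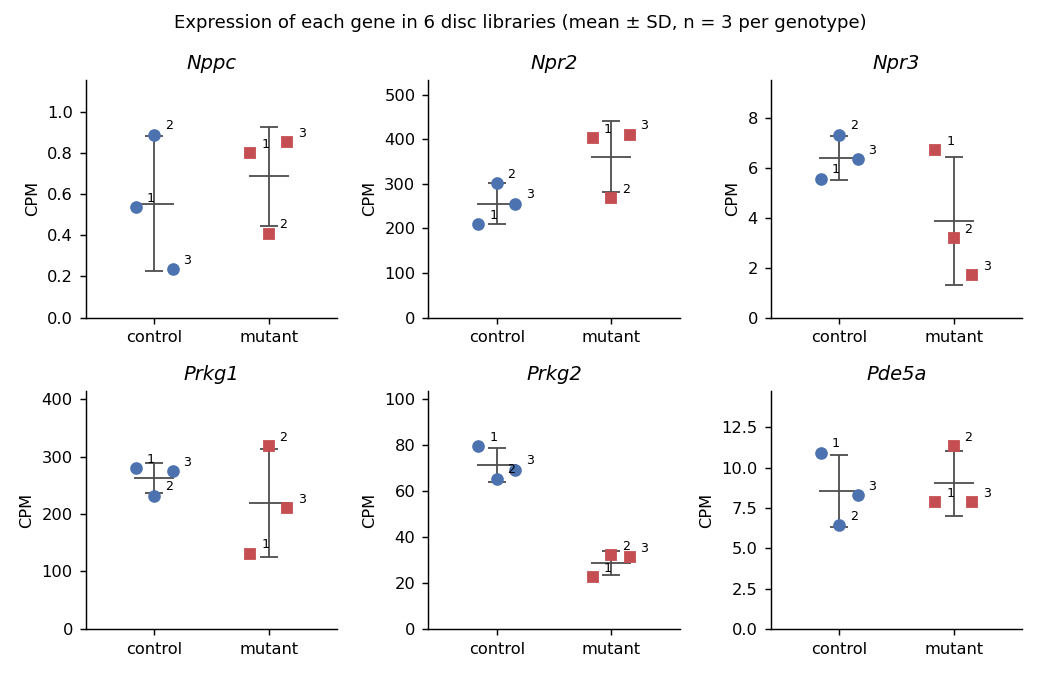
CPM of Nppc, Npr2, Npr3, Prkg1, Prkg2 and Pde5a in each of the 6 libraries, on linear axes that start at 0, with blue circles for control, red squares for mutant, replicate numbers beside the points, and lines for the mean ± SD (n = 3). The genotypes are apart for Prkg2, with controls at 65.3 to 79.4 CPM and mutants at 22.5 to 32.1 CPM, and overlap for the other 5 genes. Of all genes tested, 11.4% had genotypes that did not overlap, in either direction, and Prkg2 was selected for its lower mutant counts.

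Of the cGMP kinases, Prkg2 was lower in mutant discs and Prkg1 varied within the mutants. Prkg2 (chr5:98929773-99037351, minus strand) was at 79.4, 65.3 and 69.1 CPM in control replicates 1, 2 and 3. It was at 22.5, 32.1 and 31.2 CPM in mutant replicates 1, 2 and 3. The lowest control was above the highest mutant, with 588 to 884 counts per control library and 198 to 393 per mutant library behind these values. The means were 71.3 ± 7.31 CPM and 28.6 ± 5.28 CPM (SD, n = 3), which is 2.49-fold lower in mutants, a log2 fold change of -1.31 (SE 0.19). Without control replicate 1, the library with skeletal muscle RNA, it was -1.21, and over all 6 libraries left out in turn it ran from -1.39 to -1.13. These values selected the gene and support nothing further.

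Prkg1 (chr19:30564489-31765033, minus strand) was at 279, 232 and 275 CPM in control and 131, 318 and 210 CPM in mutant replicates 1, 2 and 3. Mutant replicate 2 was the highest of all 6 libraries and mutant replicate 1 the lowest, so that the controls lay within the range of the mutants. The means were 262 ± 26.0 CPM and 220 ± 94.3 CPM (SD, n = 3), with a log2 fold change of -0.25 (SE 0.29). A mutant library decides the sign, since leaving out mutant replicate 2 gave -0.61 and leaving out mutant replicate 1 gave 0.05. Cstf2t, an RNA processing gene, lies within an intron of Prkg1 on the opposite strand and shares no exon base with it. No stretch of 31 bases was shared between the annotated transcripts of any of the 15 pairs among the 6 genes.

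The balance between the kinases was read from their counts within each library. The log2 ratio of Prkg2 to Prkg1 counts was -1.81, -1.83 and -1.99 in control replicates 1, 2 and 3. In mutant replicates 1, 2 and 3 it was -2.54, -3.31 and -2.75. All mutants lay below all controls, at a mean of -2.87 ± 0.40 against -1.88 ± 0.10 (SD, n = 3), a difference of -0.99. The difference ran from -1.15 without mutant replicate 1 to -0.76 without mutant replicate 2. Prkg2 was selected as lower in these mutants, so the separation in this ratio supports nothing further. The counts are of whole discs, so no balance within a cell was measured. Per length of exon, Prkg2 made up 35.5% ± 1.54 of the summed kinase level in controls and 21.98% ± 4.58 in mutants (SD, n = 3). In both genotypes Prkg1 was therefore the more abundant kinase transcript of the whole disc.

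The phosphodiesterase gene was low and alike in range between genotypes. Pde5a (chr3:122728947-122859374, plus strand), whose product degrades cGMP and is best known from smooth muscle, was at 10.9, 6.44 and 8.29 CPM in control and 7.85, 11.3 and 7.86 CPM in mutant replicates 1, 2 and 3. Every mutant but replicate 2 lay between the lowest and the highest control. The log2 fold change was 0.08 (SE 0.30), and it ran from -0.11 without mutant replicate 2 to 0.31 without control replicate 1.

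Levels of different genes were compared in CPM per kb of exon. In controls the order was Npr2 at 54.8 ± 9.93, Prkg1 at 24.1 ± 2.39, Prkg2 at 13.3 ± 1.36, Pde5a at 0.869 ± 0.229, Npr3 at 0.683 ± 0.0941 and Nppc at 0.530 ± 0.314 (SD, n = 3). The ranges of Npr2, Prkg1 and Prkg2 did not overlap, and the ranges of Pde5a, Npr3 and Nppc overlapped with their neighbours in the order. In mutants the first 3 kept their places without overlap, at 77.3 ± 17.1, 20.2 ± 8.68 and 5.33 ± 0.984. They were followed by Pde5a at 0.917 ± 0.205, Nppc at 0.657 ± 0.232 and Npr3 at 0.412 ± 0.274 (SD, n = 3), again with overlap between neighbours. A receptor and kinases at high level thus stood beside a ligand transcript near the limit of detection in both genotypes.

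**Figure D2:**
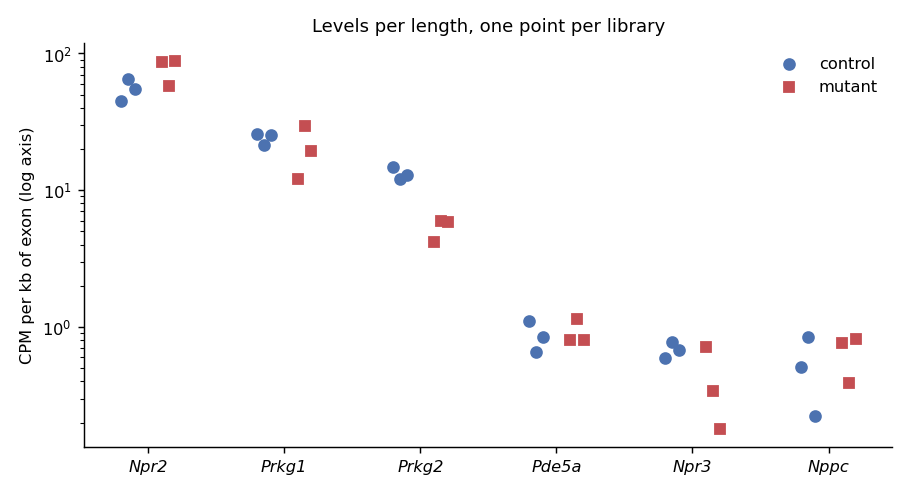
Level of each gene in CPM per kb of exon on a log axis, with 1 point per library, blue circles for control and red squares for mutant. Npr2, Prkg1 and Prkg2 form a ladder from 54.8 to 13.3 in control means, and Pde5a, Npr3 and Nppc lie together below it.

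The share of genes called in the fit across all genes gives the scale for these differences. Of 16152 genes tested with the quasi-likelihood test of edgeR, 7.21% had an unadjusted p under 0.05, of which 2.89% were higher and 4.32% lower in mutants, in percent of all genes tested. With Benjamini-Hochberg adjustment over all genes, 0.00619% passed, which is 1 gene and none of the 6. All 3 mutants lay on one side of all 3 controls in 11.4% of genes. Of the 5 genes of the set that were tested, 1 was under the unadjusted threshold and had genotypes that did not overlap, Prkg2, for which it was selected, and nothing is read from this count. DESeq2 placed Prkg2 and Npr2 under the threshold beside 6.07% of 26372 genes, and edgeR without the filter placed both there beside 8.62% of 26418. With libraries left out of the edgeR fit, Prkg2 was under it each time. Nothing is read from this either, since values of the same libraries selected the gene. Npr2 joined it without control replicate 2 (beside 5.59% of all genes), Npr3 without mutant replicate 1 (4.76%), and Prkg1 and Npr2 without mutant replicate 2 (9.76%). Prkg2 was alone without control replicate 1 (14.1%), control replicate 3 (3.77%) or mutant replicate 3 (5.1%), and with the replicate number as a block (6.2%). The median log2 fold change of all genes was -0.01 with TMM and with RLE size factors.

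Prkg2 is a gene of chondrocytes on their way to hypertrophy, and 10 markers of prehypertrophic and hypertrophic chondrocytes were therefore read beside it. None rose and 5 of 10 fell at an unadjusted p under 0.05, beside 2.89% of all genes higher and 4.32% lower, and none passed with adjustment. The list, like all lists here, was chosen with earlier results of these data known, and the study had reported Panx3 as reduced. This count and those of the fits below therefore describe the 10 genes and test nothing. In fits added after the data were seen, 2 of 10, Ihh and Panx3, fell without control replicate 1 (beside 14.1% of all genes called either way), 3 without mutant replicate 3 (5.1%) and 4 without mutant replicate 2 (9.76%). The number was 5 with any one of the other libraries left out, with RLE size factors and in DESeq2, and 6 without the filter (8.62%) and with the replicate block (6.2%). Ihh, the Indian hedgehog ligand of prehypertrophic cells, was at 188, 189 and 112 CPM in control and 63.3, 47.7 and 63.6 CPM in mutant replicates 1, 2 and 3, a log2 fold change of -1.49 (SE 0.24). Panx3, a channel of hypertrophic cells, had -1.25 (SE 0.24), and Pth1r, the receptor for parathyroid hormone-related protein, had -0.71 (SE 0.24). The transcription factors Mef2c and Runx2 had -0.66 (SE 0.25) and -0.55 (SE 0.21). With a library left out, Ihh and Panx3 were called each time, and the other genes called differed between fits. Mef2c lost its call without control replicate 1 or 3 or mutant replicate 1 or 3. Runx2 lost it without control replicate 1 or mutant replicate 1 or 3, and Pth1r without control replicate 1 or mutant replicate 2. The other 5 did not pass. Col10a1, the collagen of hypertrophic cartilage, was at -0.91 (SE 0.43), and it passed without the filter, with the block, without control replicate 3 and without mutant replicate 1. Sp7 was at -0.41 (SE 0.27) and passed without mutant replicate 1, and Ibsp was the one of the 10 with a value above 0, at 0.44 (SE 0.27). Summed, the markers were at 3522, 2671 and 2014 CPM in control and 2201, 2057 and 1739 CPM in mutant replicates 1, 2 and 3, so that the genotypes overlapped in the sum.

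Against these genes within each library, the place of Prkg2 depended on the gene it was set beside. The log2 ratio of Prkg2 to Ihh counts was -1.24, -1.53 and -0.70 in control and -1.49, -0.57 and -1.03 in mutant replicates 1, 2 and 3. The genotypes overlapped, and the means differed by 0.13, less than the SD of either group (0.42 and 0.46). The ratio of Prkg2 to Pth1r was lower in every mutant, at a mean of -4.18 ± 0.31 against -3.52 ± 0.32 (SD, n = 3). The ratio of Prkg2 to the summed markers was lower in every mutant as well, by 0.91, and so was that to Acan, by 1.02. In every library the largest parts of the marker sum were Pth1r, Alpl, Ibsp and Col10a1, and the cells they came from were not tested. Prkg2 was selected as lower in mutants, so its lower ratios support nothing further. Markers of other cells of the disc and its surroundings moved in the same fit. Of 7 osteoblast markers, 3 rose, Bglap at 1.64 (SE 0.32), Bglap2 at 1.31 (SE 0.36) and Col1a1 at 1.05 (SE 0.46), and Phex fell at -0.81 (SE 0.33). Of 6 annulus and tendon markers, Thbs4 at 1.09 (SE 0.24) and Tnmd at 0.96 (SE 0.26) rose. Of 10 markers of resting and proliferating chondrocytes, Matn3 at -0.78 (SE 0.28) and Ucma at -0.57 (SE 0.22) fell, and of 8 nucleus pulposus markers Car12 fell at -0.74 (SE 0.25). Of 7 red cell, 6 neutrophil and 5 tested neuron and glia markers, 1 each rose, Slc4a1 at 2.68 (SE 0.60), Mpo at 2.15 (SE 0.44) and Nefl at 2.93 (SE 1.12). All 6 skeletal muscle markers were called lower (median -3.11), which are the genes that set control replicate 1 apart. These calls are at an unadjusted p under 0.05, which 7.21% of all genes passed, and none passed with adjustment. Fewer cells of a type and less RNA per cell cannot be told apart in bulk discs, and the part of any of these cells in the level of Prkg2 was not tested.

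**Figure D3:**
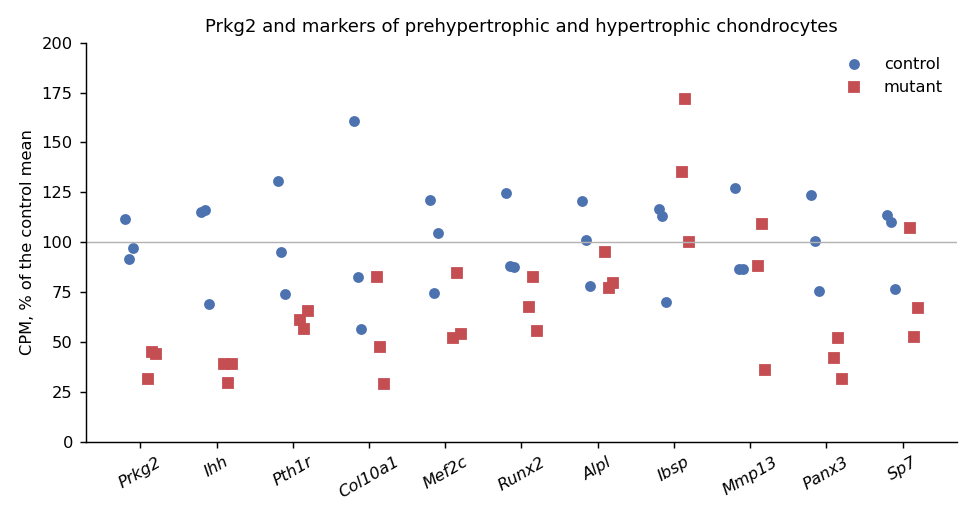
CPM of Prkg2 and of 10 markers of prehypertrophic and hypertrophic chondrocytes in each library, in percent of the control mean of that gene, with blue circles for control and red squares for mutant and a line at the control mean. Mutants lie below all controls for Prkg2, Ihh, Pth1r, Runx2 and Panx3, and the genotypes overlap for the other 6 genes. Of all genes tested, 11.4% had genotypes that did not overlap, in either direction, and Prkg2 was selected for its lower mutant counts.

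The markers of the cells that are best known for Prkg1, Pde5a and Nos3 were read likewise. The 9 smooth muscle and pericyte markers summed to 885, 614 and 637 CPM in control and 857, 731 and 1037 CPM in mutant replicates 1, 2 and 3, with 1 called higher and 1 lower. The lower one was Des, also a muscle gene, at 127 CPM in control replicate 1 and at 5.24 to 13.2 CPM in the other 5 libraries. The 7 endothelial markers summed to 290, 152 and 182 CPM in control and 237, 257 and 264 CPM in mutants, with none called. The 5 platelet markers, of which 3 were tested and none called, summed to 29.8, 45.6 and 42.3 CPM in control and 38.0, 25.4 and 35.4 CPM in mutants. For all 3 lists the genotypes overlapped in the sum. Prkg1, Pde5a and the smooth muscle and endothelial sums were all highest among controls in replicate 1 and lowest in replicate 2. The platelet sum ran the other way, lowest in control replicate 1 and highest in control replicate 2. Among mutants, Prkg1 and Pde5a were highest in replicate 2, where the smooth muscle and platelet sums were lowest. The endothelial sum of mutant replicate 2 lay between those of the other mutants. The part of these cells in either gene was not tested.

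**Figure D4:**
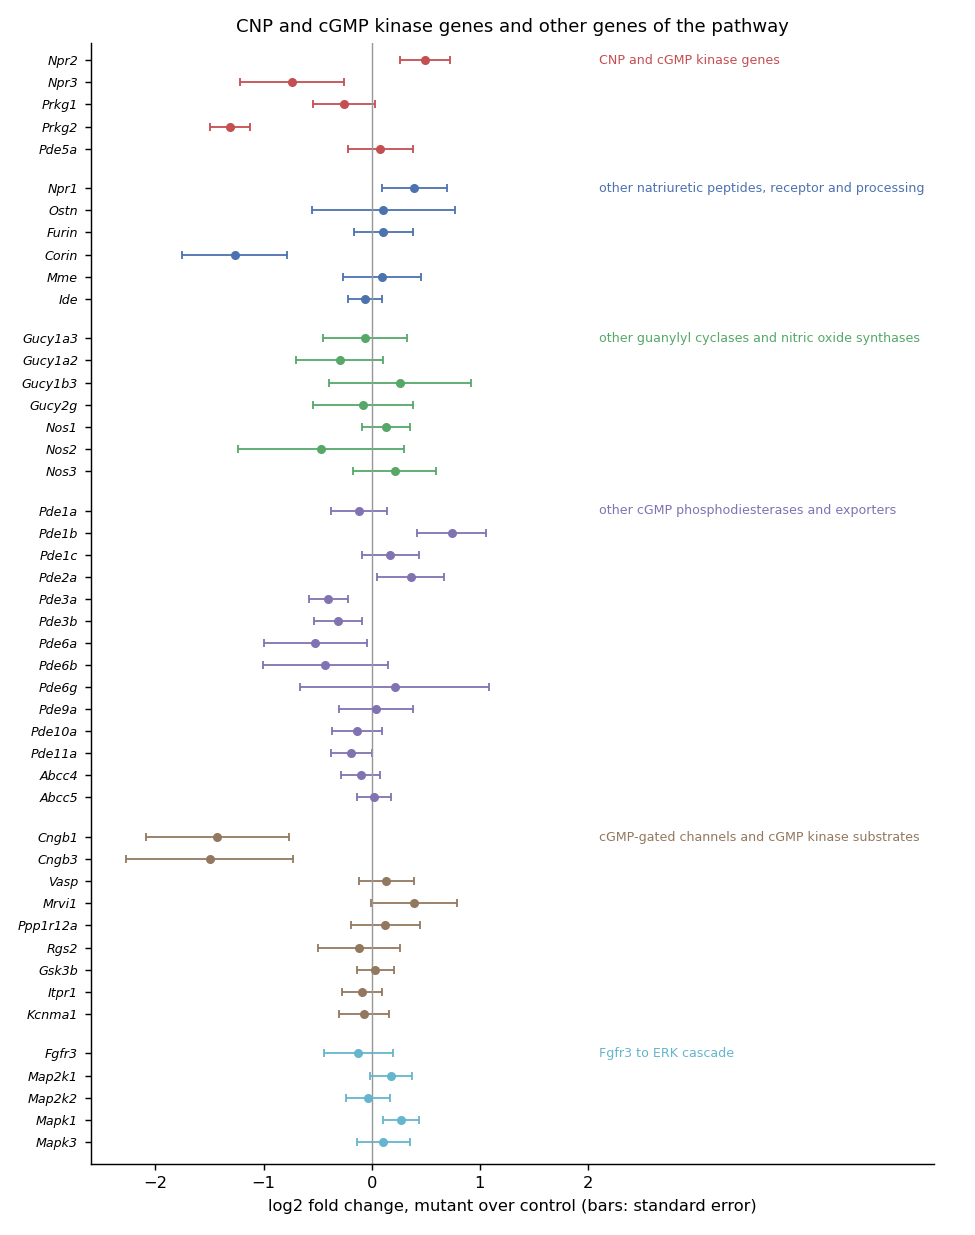
Log2 fold change of mutant over control from edgeR for 5 of the CNP and cGMP kinase genes and for 41 other genes of the pathway by list, with bars for the standard error and a line at 0. Prkg2 (-1.31) and Corin (-1.27) lie to the left. Cngb1 and Cngb3 lie further left with wide bars and were not called in this fit, and most other genes lie near 0.

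The rest of the pathway was read from 5 lists with 54 genes, of which 41 had enough counts to be tested. By the unadjusted threshold, 1 was higher and 1 lower in mutants, which is 4.88% of those tested beside 7.21% of all genes. None passed with adjustment over all genes in edgeR or in DESeq2. Without control replicate 1, 7 of 43 pathway genes were called, beside 14.1% of all genes. The log2 fold change was within 0.5 of 0 for 36 of the 41.

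Among the other natriuretic peptides, their receptor and the enzymes that process them, 6 of 8 genes were tested and 1 was called, with a median log2 fold change of 0.10. Corin, the protease that cuts the atrial peptide precursor, was at 2.68, 4.89 and 4.92 CPM in control and 1.37, 1.88 and 1.91 CPM in mutant replicates 1, 2 and 3. All mutants lay below all controls, with a log2 fold change of -1.27 (SE 0.48, adjusted p = 0.676 from edgeR). The call was lost with any library but control replicate 1 left out, at p from 0.0511 to 0.0906, while the log2 fold change in those fits ran from -1.34 to -1.09. Furin, the protease that cuts the CNP precursor, was at 264 ± 71.2 CPM in control and 284 ± 84.1 CPM in mutant libraries (SD, n = 3). Npr1, which encodes the receptor for the heart peptides, had a log2 fold change of 0.40 (SE 0.30) that was not called, and was called at 0.87 without control replicate 1. The genes of those peptides, Nppa and Nppb, were too low to be tested, with 2 to 9 counts per library for Nppa and 2 counts in all for Nppb.

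Among other guanylyl cyclases and nitric oxide synthases, which feed cGMP by routes other than NPR-B, 7 of 12 genes were tested and none was called (median -0.06). Nos3, the endothelial synthase and the most abundant of them per kb by group mean, was at 13.9 ± 8.49 CPM in control and 16.1 ± 4.16 CPM in mutant libraries (SD, n = 3), with a log2 fold change of 0.21 (SE 0.39). It was called at 0.86 without control replicate 1, a library at 23.7 CPM, and was at -0.04 without control replicate 3. Among other cGMP phosphodiesterases and exporters, 14 of 16 were tested and 1 was called (median -0.11). Pde1b, a phosphodiesterase switched on by calcium and calmodulin, was at 5.78, 6.66 and 9.77 CPM in control and 16.8, 9.14 and 11.4 CPM in mutant replicates 1, 2 and 3. Mutant replicate 2 lay below the highest control, and the log2 fold change was 0.74 (SE 0.32, adjusted p = 0.691 from edgeR). The call was lost without control replicate 1 or 2 or mutant replicate 1 or 3, at p from 0.0617 to 0.168. The log2 fold change in those fits ran from 0.50 to 0.80. With the replicate number as a block the call was lost as well, at a log2 fold change of 0.73.

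Among cGMP-gated channels and kinase substrates, 9 of 13 were tested and none was called in edgeR with the filter and all 6 libraries (median -0.07). The lowest values were those of Cngb3 at -1.50 (SE 0.77) and Cngb1 at -1.43 (SE 0.66). Cngb3 was called lower in DESeq2 at -1.48 (beside 6.07% of all genes) and in edgeR without the filter at -1.47 (8.62%). Without control replicate 3, Cngb3 was at -0.59 and Cngb1 at -0.76. Cngb3 was at 0.749, 4.11 and 8.60 CPM in control and 0.910, 2.53 and 1.27 CPM in mutant replicates 1, 2 and 3. The olfactory and vomeronasal receptor genes summed to 22.4, 66.9 and 129 CPM in control and 15.7, 29.8 and 28.0 CPM in mutant replicates 1, 2 and 3. Cngb1 was likewise highest in control replicate 3. The part of scattered reads in the values of Cngb1 and Cngb3 was not tested. Kcnma1, a potassium channel opened by calcium, had the highest control mean of the list per kb, at 471 ± 71.2 CPM against 448 ± 120 CPM in mutants (SD, n = 3). Vasp, a cytoskeletal substrate of the kinases, had the highest mutant mean per kb, at 70.0 ± 19.0 CPM in control and 76.8 ± 19.2 CPM in mutant libraries (SD, n = 3). The ranges of Kcnma1 and Vasp per kb overlapped in both genotypes. In the cascade from Fgfr3 to ERK, on which the type II kinase acts, the 5 genes read were all tested and none was called (median 0.11). Fgfr3 was at 358 ± 52.9 CPM in control and 329 ± 170 CPM in mutant libraries, with a log2 fold change of -0.12 (SE 0.32). Mutant replicate 1, at 525 CPM against 217 and 245 CPM in the other mutants, decides this value, since without it Fgfr3 was called lower at -0.60. Leaving out mutant replicate 2 gave 0.12, and leaving out mutant replicate 3 gave 0.05. Mapk3, the most abundant of the 5 per kb by group mean, had a log2 fold change of 0.11 (SE 0.24). Its range per kb overlapped with that of Fgfr3 in both genotypes.

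The genes whose pattern over the 6 libraries was most like that of Prkg2 were ranked by Pearson's r of log2 CPM with an offset of 0.5, among 15989 tested genes with a mean of at least 1 CPM. They were Ccdc12 (r = 0.996), Shisa4 (r = 0.983), Il4 (r = 0.981), Lsm7 (r = 0.979) and 4930593A02Rik (r = 0.978), and 33 genes had an r over 0.95. Ccdc12 was at 74.5, 70.2 and 67.1 CPM in control and 37.4, 45.0 and 43.3 CPM in mutant replicates 1, 2 and 3. In all 5 of them the mutants lay below the controls, which the split of Prkg2 by genotype brings with it. With so many genes and 6 libraries split by genotype, such r values rank the genes and test nothing.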

How the data were processed

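Per the labels and methods, poly(A) RNA of pooled IVDs was sequenced. The authors deposited 1 file of raw counts per library, which were used as deposited. The study's methods name Cutadapt and HISAT2, while the submitters' processing notes name STAR 2.5.3a, HTSeq and DESeq2 on GRCm38 (mm10). The strand setting is not given in the sources used here. A deposited table of fold changes and p-values was not used. The methods' FPKM test was replaced by a count test.

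Genotypes were tested in R 4.3.3 by edgeR 4.0.16 (TMM, filterByExpr with a count minimum of 10, quasi-likelihood test, Benjamini-Hochberg adjustment over 16152 genes), checked on simulated data. The SE is the log2 fold change divided by the square root of F. A gene was called at an unadjusted p under 0.05. Of 43472 symbols, 39449 matched GENCODE M21 and 976 more matched by a synonym. Exon lengths are unions over transcripts. Alternatives were RLE size factors, no filter, a replicate block, DESeq2 1.42.0 and leaving out each library. Named were the 6 genes, called pathway genes or else the most abundant of a list per kb, and the 5 genes most like Prkg2. Genes named beyond this rule were chosen after their values were seen. The 6 genes and all lists were chosen with earlier results of these data known. The p-values measure the spread between pools. Besides the 54 pathway genes counted, 1 gene was left out of the lists and is not reported here.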

Additional observations from a re-analysis of the deposited data

How the results depend on the processing

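Prkg2 stayed lower and Npr2 higher in mutants under RLE size factors, no filter, the replicate block, DESeq2 and each library left out, with Prkg2 at -1.39 to -1.13 and Npr2 at 0.39 to 0.68 on the log2 scale. Npr3 stayed below 0 in the same settings. Prkg1 and Pde5a changed sign with a library left out, as given with their values. Nppc has no log2 fold change where low counts are filtered; without the filter it was 0.33 in edgeR (SE 1.25) and in DESeq2 (SE 1.15). Of the 6 genes, 2 were called without the filter (beside 8.62% of all genes) and 2 in DESeq2 (6.07%), and 1 to 3 with a library left out, beside the shares of all genes given with those calls. Pathway genes called higher numbered 0 with the replicate block and 0 to 3 with a library left out, the highest without control replicate 1 (Npr1, Nos3 and Pde2a). Those called lower numbered 2 without the filter and 2 in DESeq2, Corin and Cngb3 in both. They numbered 0 to 4 with a library left out, the highest again without control replicate 1 (Corin, Cngb1, Cngb3 and Gucy2c). Cngb1, Cngb3 and Gucy2c, like the olfactory and vomeronasal receptor genes in sum, were highest of all libraries in control replicate 3. The part of scattered reads in their calls was not tested. Of all genes, 2276 were called without the filter, and with a library left out from 618 (control replicate 3) to 2427 (control replicate 1). The causes were not tested. The labels do not say whether replicate numbers pair the libraries. The deviations of same-numbered libraries correlated at 0.159, -0.13 and 0.10, which with 3 libraries per group cannot settle it. With the replicate number as a block Prkg2 was at -1.32, and Pde1b lost its call at a log2 fold change of 0.73. Depth limits Nppc. The mutant values of Npr3 rest on 16 to 59 counts per library, and the part of depth in their spread was not tested.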
